A study of Mus musculus with 2 samples.

Results

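The genes described here are 30 immediate early genes and 7 heat shock genes, 37 of the 31053 genes in the count tables of a single-cell RNA sequencing study of mouse colon epithelium. They were taken as the rows of 37 listed symbols, and each symbol was found in both tables. The study asks what Kit-expressing cells of the colon give rise to. Untreated mice of the genotype c-Kit-creERT2 gave the library labelled as the whole epithelium. The library labelled GFP was made from GFP-positive cells, sorted by flow cytometry, of mice of the genotype c-Kit-creERT2;Rosa26-mTG that had received tamoxifen by 1 intraperitoneal injection, at 1 mg for every 20 g of body weight. Both groups carry the Cre recombinase fused to an estrogen receptor domain at Kit, which tamoxifen activates, and Rosa26-mTG switches on GFP in cells where Cre has acted and in their descendants. The age of the mice and the number of mice behind each library are not given in the sources used here. Both tissues went through the same release and digestion steps, with 2 mM EDTA for 80 min at 37 °C followed by TrypLE for 1 h, and the sort was described for the GFP cells alone.

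There is 1 library per group, hence no replicate behind any difference, no test and no p-value. Genotype, tamoxifen, the sort and the library cannot be told apart. The records pair each count table with the barcode list of the other sample, and each table was assigned to the sample whose barcode list has its number of columns. Every direction below would turn with the opposite assignment, so "whole-epithelium library" and "GFP library" are used here as labels. The libraries shared 60 barcodes, 0.442% of the GFP barcodes. After removal of barcodes with fewer than 500 genes, fewer than 1000 unique molecular identifiers (UMIs, counts of captured RNA molecules) or more than 25% mitochondrial UMIs, 7762 of 13967 barcodes remained in the whole-epithelium library and 5767 of 13575 in the GFP library. The median depth of the remaining cells was 14160 and 15821 UMIs, respectively. UMIs were summed over cells and given as CPM, a scale on which every library has the same total, and the 95% intervals of ratios cover counting error only.

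Immediate early genes are switched on within minutes of a stimulus without new protein synthesis. Many encode transcription factors, such as the FOS and JUN proteins that pair to form AP-1 and the zinc finger proteins of the EGR family. Others encode proteins that end the response by removing phosphate from kinases, destroying messenger RNA or holding back NF-kappaB. Heat shock genes encode chaperones, some made mainly under protein-damaging stress and driven by the factor HSF1, others made in all cells at all times. In single-cell work both groups are also known to respond to warm enzymatic digestion. The labels give the same digestion for both libraries, and its part in the results was not tested.

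Promoter sequences are shown first for the pair of stress-inducible HSP70 genes, because the results treat them as one pair of near copies, and then for 2 feedback genes. Of the 37 members, 30 had a promoter in the RefSeq table of GRCm38.p6 (the assembly that mm10 stands for), 25 of them immediate early and 5 heat shock, out of 27025 genes. Only the 250 bases before the start were searched, on both strands. Hspa1a (chr17:34972157-34972406, minus strand) and Hspa1b (chr17:34959239-34959488, minus strand) are given 5′ to 3′, with a match to GAANNTTC, a pair of facing units of the heat shock element, in capitals.
Hspa1a: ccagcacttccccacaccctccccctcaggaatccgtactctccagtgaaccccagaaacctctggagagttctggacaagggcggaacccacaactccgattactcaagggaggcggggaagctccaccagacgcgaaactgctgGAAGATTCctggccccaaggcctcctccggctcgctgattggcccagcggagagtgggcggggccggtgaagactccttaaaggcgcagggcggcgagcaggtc
Hspa1b: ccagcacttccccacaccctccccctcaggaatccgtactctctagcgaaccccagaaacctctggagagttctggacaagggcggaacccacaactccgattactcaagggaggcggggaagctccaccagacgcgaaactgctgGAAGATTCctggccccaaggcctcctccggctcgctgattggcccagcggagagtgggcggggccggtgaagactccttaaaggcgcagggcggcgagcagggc
The pair was identical over 98.8% of the 250 bases. The 3 differences, counted from 1 at the 5′ end with the Hspa1a base given first, were C44T, T47C and T249G.

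GAANNTTC was chosen after the sequences had been read. It was present in 3 of the 5 heat shock promoters (Hspa1a, Hspa1b and Hspb1), in 1 of the 25 immediate early promoters (Jun) and in 7.73% of all promoters. The facing order TTCNNGAA, likewise chosen after reading, was present in Hsph1, in 2 of the 25 immediate early promoters and in 8.11% of all. The heat shock element with 3 units was present in none of the 30 and in 0.514% of all promoters. Among the immediate early promoters, the cyclic AMP response element TGACGTCA was present in 4 of 25 (Maff, Dusp1, Ppp1r15a and Btg2) against 1.77% of all promoters. The CArG box, bound by serum response factor, was present in 2 of 25 (Egr2 and Zfp36) against 1.62%. The AP-1 motif TGANTCA was present in none of the 25, against 7.82% of all promoters. These matches describe the letters in this window, not bound sites. Windows of 60 bases are given for Ppp1r15a (chr7:45526269-45526328, minus strand) and for Btg2 (chr1:134079288-134079347, minus strand). Ppp1r15a was the one immediate early member whose compared clusters all separated by library (below). Btg2 holds the same motif and differed less between the libraries. TGACGTCA is in capitals.
Ppp1r15a: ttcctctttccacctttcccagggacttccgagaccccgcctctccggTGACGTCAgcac
Btg2: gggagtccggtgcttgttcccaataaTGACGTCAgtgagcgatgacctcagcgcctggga
The element lay closer to the start in Ppp1r15a, beginning 12 bases before it, than in Btg2, where it began 166 bases before it. In Dusp1 it began 143 bases before the start, and in Maff 29 bases before 1 of its starts. Whether the position goes with the size of the difference was not tested.

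Over all kept cells, most immediate early members were lower in the GFP library, while the heat shock members ran from inducible chaperones that were lower to Hsph1 and the constitutive Hspa8, which were level or slightly higher. Of 30 immediate early members 29 had at least 20 UMIs in both libraries together, and 25 of these 29 were lower in the GFP library. Over all 15223 genes with that many UMIs, 53.7% were lower. At least 2-fold lower were 8 of 29 immediate early members, against 10.0% of all genes, and none was 2-fold higher, against 3.97%. The median log2 ratio of the 29 was -0.82, where that of all genes was -0.03. Summed over the list, immediate early members made up 12905 CPM of the whole-epithelium library and 7560.0 CPM of the GFP library. Of the 7 heat shock members 6 were lower and 2 were at least 2-fold lower, with a median log2 ratio of -0.67. Their sum was 4487 CPM in the whole-epithelium library and 3725 CPM in the GFP library.

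**Figure D1:**
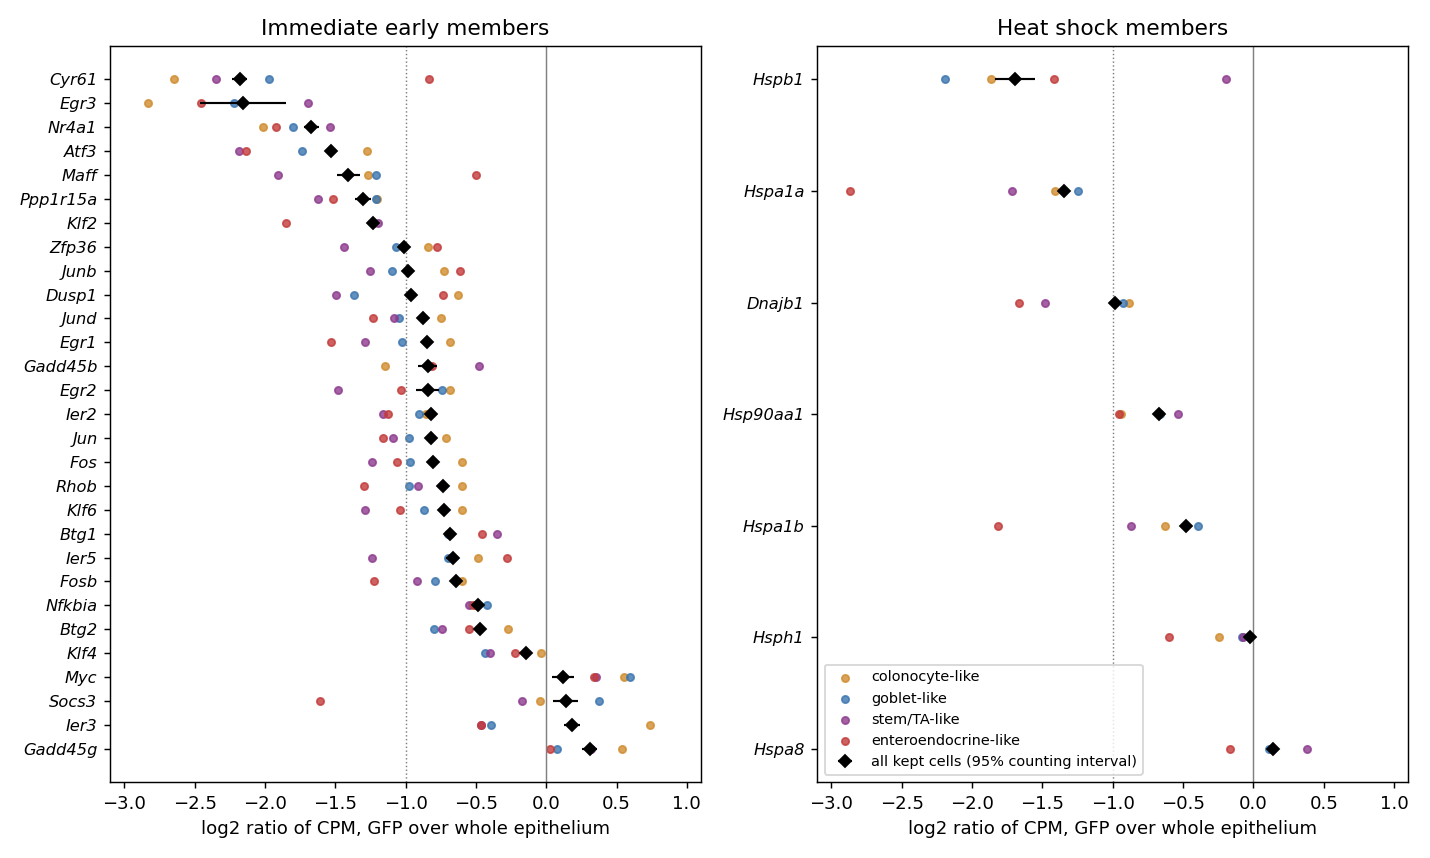
Log2 ratio of CPM, GFP over whole epithelium (x axis), for each member with at least 20 UMIs, immediate early on the left and heat shock on the right. Black diamonds with bars are all kept cells with their 95% counting interval, coloured points are 4 cell classes, the solid line marks no difference and the dotted line 2-fold lower. Cyr61, at -2.18, is the lowest immediate early member and Gadd45g, at 0.31, the highest.

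Among the AP-1 genes, Fos was at 1624 CPM in the whole-epithelium library and 929.8 CPM in the GFP library, a log2 ratio of -0.80 (interval -0.82 to -0.79). Its partner Jun was at 1703 and 967.1 CPM (-0.82, -0.83 to -0.81). Jund, the JUN family member with the steadiest expression in most cells, was at 1033 and 562.8 CPM (-0.88, -0.89 to -0.86). These 3 members, each above 1000 CPM in the whole-epithelium library, thus differed by nearly the same log2 ratio. Junb, which can oppose Jun, was at 601.3 and 305.0 CPM (-0.98, -0.998 to -0.961). Atf3 (chromosome 1, 191170296 to 191218039), a stress-induced member of the ATF family that also pairs with JUN proteins, had the lowest ratio of the group, at 754.2 and 261.2 CPM (-1.53, -1.55 to -1.51). Maff, a small MAF protein that pairs with stress-response factors, was at 39.4 and 14.9 CPM (-1.41, -1.49 to -1.33). Fosb completed the family at -0.64, so all 7 members of this group were lower in the GFP library.

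Egr3, an EGR factor best known from neurons and lymphocytes, had few UMIs, at 4.34 CPM in the whole-epithelium library and 0.977 CPM in the GFP library (log2 ratio -2.15, -2.46 to -1.85). Egr1 and Egr2 of the same family were closer between the libraries, at -0.85 and -0.84. Nr4a1 (chromosome 15, 101254269 to 101274795), an orphan nuclear receptor induced by many stimuli, was at 100.7 and 31.6 CPM (-1.67, -1.72 to -1.62). Klf2, a zinc finger factor that also responds to fluid shear, was at 236.7 and 101.0 CPM (-1.23, -1.26 to -1.20). Klf6 was at -0.73. Klf4, which marks differentiated epithelium of the gut surface as well as being an immediate early gene, was at 917.6 and 829.7 CPM (-0.15, -0.16 to -0.13). Growth-related Myc was at 19.9 and 21.6 CPM (0.12, 0.04 to 0.20).

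The secreted matrix protein gene Cyr61 (chromosome 3, 145646976 to 145649981), a target of the YAP and serum response factors, had the lowest ratio of all tested members, at 142.5 CPM in the whole-epithelium library and 31.5 CPM in the GFP library (log2 ratio -2.18, -2.23 to -2.12). Its relative Ctgf had 14 UMIs in the whole-epithelium library and 1 in the GFP library, too few for the counts above (-3.46, -8.86 to -0.75). Rhob, a small GTPase gene induced by stress and growth factors, was at 373.4 and 224.5 CPM (-0.73, -0.76 to -0.71).

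Ppp1r15a, whose protein restores translation after stress by removing phosphate from eIF2 alpha, was at 71.2 CPM in the whole-epithelium library and 28.9 CPM in the GFP library (-1.30, -1.36 to -1.24). Zfp36, which destroys messenger RNAs with AU-rich ends, was at 456.6 and 226.9 CPM (-1.01, -1.03 to -0.99). The MAP kinase phosphatase gene Dusp1 was at -0.96, the NF-kappaB inhibitor gene Nfkbia at -0.48 and the antiproliferative genes Btg1 and Btg2 at -0.68 and -0.47. Ier2 and Ier5 were at -0.82 and -0.67, and Gadd45b, a growth arrest gene, at -0.84. Besides Myc, 3 members were higher in the GFP library (4 of 29, against 46.3% of all genes), named here after their values were seen. Gadd45g, a relative of Gadd45b, was at 43.3 and 53.6 CPM (0.31, 0.26 to 0.36). The apoptosis regulator gene Ier3 was at 39.5 and 45.0 CPM (0.19, 0.13 to 0.24), and Socs3, an inhibitor of cytokine signalling, at 16.03 and 17.7 CPM (0.14, 0.05 to 0.23).

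Among the heat shock genes, the small chaperone gene Hspb1 (chromosome 5, 135887919 to 135889563) was at 15.3 CPM in the whole-epithelium library and 4.73 CPM in the GFP library (log2 ratio -1.69, -1.84 to -1.56). Hspa1a, one of the inducible HSP70 genes shown above, was at 391.1 and 153.5 CPM (-1.35, -1.37 to -1.32). Dnajb1, an inducible HSP40 that delivers clients to HSP70, was at 314.7 and 158.8 CPM (-0.99, -1.01 to -0.96). Hsp90aa1, the inducible HSP90, was at 1308 and 821.5 CPM (-0.67, -0.68 to -0.66). Hspa1b was at 273.8 and 196.4 CPM (-0.48, -0.50 to -0.45). Hsph1, which reloads HSP70, was at 98.3 and 96.5 CPM, and its interval of -0.06 to 0.01 holds 0. Hspa8, the constitutive HSP70 of unstressed cells, was at 2086 and 2294 CPM (0.14, 0.13 to 0.14) and was the one heat shock member higher in the GFP library.

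Hspa1a and Hspa1b stood in opposite order in the libraries. Hspa1a had 1.43 times the UMIs of Hspa1b in the whole-epithelium library and 0.782 times in the GFP library. The same turn was seen in each of 4 classes, from 1.27 to 0.702 in goblet-like cells and from 1.49 to 0.830 in stem/TA-like cells, for example. The transcripts share 58.8% of the 50-base words of Hspa1a and 62.3% of those of Hspa1b, but 0 of the 451 words in their last 500 bases, where reads of a 3′ protocol are expected to fall. Since how the authors' counting treated reads common to both genes is not given in the sources used here, the split between them is uncertain, and their sum does not depend on it unless shared reads were dropped. Together they were at 664.9 CPM in the whole-epithelium library and 349.9 CPM in the GFP library, a log2 ratio of -0.93.

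To describe the members within cell types, cells of both libraries were clustered with the members and 73 related stress genes left out of the variable genes, and clusters were named from marker genes. Of 29 clusters, 24 held over 95% of their cells from 1 library, so a class is mostly made of different clusters in the libraries. Colonocyte-like cells, the absorptive cells, numbered 2548 and 1558 in the whole-epithelium and GFP libraries. Mucus-producing goblet-like cells numbered 1424 and 1042, stem/TA-like cells (here cycling clusters of stem or transit-amplifying cells) 424 and 963, and hormone-producing enteroendocrine-like cells 152 and 109. The unnamed clusters, which take part in no class, held 2909 and 1989 cells. Some were shallow, while c5, c9 and c15 of the whole-epithelium library and c10 of the GFP library were not. A difference within a class can therefore include a difference in which cells of the class were caught.

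In colonocyte-like cells 26 of 29 immediate early members were lower in the GFP library, against 67.6% of all 12398 genes, and 8 were at least 2-fold lower, against 7.86%. The median log2 ratio was -0.68, beside -0.16 for all genes. With ratios centred on the median gene, so that all genes divide evenly, 24 of 29 were lower, with a median of -0.52. Cyr61 was at 98.5 and 15.7 CPM (-2.65, -2.78 to -2.52) and Nr4a1 at 40.5 and 10.0 CPM (-2.01, -2.19 to -1.84). Atf3 was at 802.7 and 331.2 CPM (-1.28, -1.31 to -1.25) and Maff at 58.7 and 24.5 CPM (-1.26, -1.38 to -1.15). Of the heat shock members 6 of 7 were lower and 2 were at least 2-fold lower, namely Hspb1, at 1.92 and 0.527 CPM (-1.86, -2.70 to -1.11), and Hspa1a, at 294.7 and 111.1 CPM (-1.41, -1.46 to -1.35). With cells thinned to 2000 UMIs or with each library clustered on its own, the immediate early count was 5. The heat shock count at that size ranged from 0 to 4 over the settings tried.

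In goblet-like cells the immediate early difference was larger, with 26 of 29 lower against 48.1% of all 12847 genes, 12 at least 2-fold lower against 5.92%, and a median log2 ratio of -0.97 beside 0.01 for all genes. Egr3 was at 4.45 CPM in the whole-epithelium library and 0.956 CPM in the GFP library (-2.22, -2.88 to -1.60). Cyr61 was at 148.7 and 37.9 CPM (-1.97, -2.07 to -1.87), Nr4a1 at 189.8 and 54.6 CPM (-1.80, -1.88 to -1.71) and Atf3 at 646.8 and 194.2 CPM (-1.74, -1.78 to -1.69). Dusp1 was at 489.1 and 190.0 CPM (-1.36, -1.41 to -1.32). Here too 6 of 7 heat shock members were lower and 2 at least 2-fold lower, led by Hspb1 at 22.3 and 4.88 CPM (-2.19, -2.47 to -1.92). By cluster, Hspb1 ran from 6.29 CPM in c11 to 60.4 CPM in c23 of the whole-epithelium library. It was at 5.83 CPM in c3 and 0.893 CPM in c21 of the GFP library. Goblet-like cells of the GFP library were deeper, with a median of 24282 UMIs against 11613.

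In stem/TA-like cells 27 of 29 immediate early members were lower, against 38.6% of all 12293 genes, and the median log2 ratio was -1.20 beside 0.09 for all genes, with a range of -1.29 to -0.71 over 16 settings. Centred on the median gene, 27 of 29 were again lower, with a median of -1.29. At least 2-fold lower were 18 members, against 3.88% of all genes. This count rests on 1 cluster of the whole-epithelium library, c14. It was 9 with each library clustered on its own and 9 with the members among the clustering genes. With clusters admitted that another class's markers lead, it was 10. The immediate early sum was 15055 CPM in c14 and 6398 and 7843 CPM in the GFP clusters c6 and c18. Unnamed whole-epithelium clusters c9 (568 cells, best marker list stem) and c15 (393 cells, best marker list cycling) were at 11628 and 8615 CPM. Both were left out because another class's markers led them. Cyr61 was at 218.1 and 42.8 CPM (-2.35, -2.45 to -2.25), Atf3 at 983.2 and 216.6 CPM (-2.18, -2.23 to -2.14) and Maff at 31.6 and 8.42 CPM (-1.91, -2.14 to -1.68). Egr3 was at 4.47 and 1.39 CPM (-1.69, -2.30 to -1.10) and Ppp1r15a at 72.3 and 23.5 CPM (-1.62, -1.76 to -1.48). Hspa1a was at 655.1 and 199.6 CPM (-1.71, -1.76 to -1.67) and was 1 of 6 heat shock members that were lower and of 2 that were at least 2-fold lower. Hspa8 was higher, at 2139 and 2784 CPM (0.38, 0.36 to 0.40).

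In enteroendocrine-like cells 27 of 29 immediate early members and 7 of 7 heat shock members were lower in the GFP library, against 57.3% of all 9233 genes. At least 2-fold lower were 15 and 4 members, against 7.51%. Hspa1a had the lowest ratio, with 807.8 and 110.5 CPM (-2.87, -3.21 to -2.55), and Hspa1b was at 541.9 and 153.9 CPM (-1.82, -2.11 to -1.53). Egr3 was at 137.3 and 24.99 CPM (-2.46, -3.22 to -1.78), Atf3 at 1105 and 251.2 CPM (-2.14, -2.36 to -1.92), Nr4a1 at 288.9 and 76.3 CPM (-1.92, -2.34 to -1.52) and Klf2 at 659.8 and 182.8 CPM (-1.85, -2.12 to -1.59). The cells of this class came from a single cluster, c22. A second cluster led by hormone genes, c24, held 173 cells of the whole-epithelium library with a median of 3294 UMIs and stayed unnamed, with a marker score just under the limit of 3 that was set after the clusters were seen. Its summed immediate early level was 9584 CPM, beside 19204 CPM in c22 of the same library and 9323 CPM in the GFP cells of c22. It had Egr3 at 2.52 CPM, Atf3 at 575.1 CPM and Hspa1a at 223.2 CPM, each lower than in c22 of that library. With such shallow clusters named, the class had 325 and 109 cells, 27 of 29 immediate early and 7 of 7 heat shock members were again lower, and those at least 2-fold lower fell to 8 and 3. The immediate early median was then -0.76, and Egr3 was at -1.82 and Hspa1a at -2.43. The cells of c22 had median depths of 6361 and 3590 UMIs and median mitochondrial shares of 5.88% and 12.1%. Whether depth and RNA quality play a part in these ratios was not tested.

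The members differed between cell classes of the same library too, but a wide range was less common among immediate early members than among all genes. The highest class was at least 4-fold over the lowest for 10 of 29 immediate early members in the whole-epithelium library (5 classes, T or NK lymphocyte-like cells included) and 5 of 29 in the GFP library (4 classes). Over all genes this held for 45.0% and 39.8%. All genes here means those with at least 20 UMIs over the classes, so the share includes genes with few UMIs. It was not matched to the members for level, and whether level plays a part in the contrast was not tested. Enteroendocrine-like cells, here c22 without c24, were the highest class for 13 of 29 immediate early members in the whole-epithelium library, against 37.2% of all genes. In the GFP library they were highest for 15 of 29, against 45.0%. Both counts are near the share of all genes. Egr3 was at 137.3 CPM in the enteroendocrine-like cells of the whole-epithelium library and at 1.103 CPM in its colonocyte-like cells, and at 24.99 and 0.155 CPM in the GFP library, where the lower value rests on 5 UMIs. Egr1 was at 1609 CPM and Fosb at 1300.2 CPM in the enteroendocrine-like cells of the whole-epithelium library, and their lowest class there was the lymphocyte-like one, at 361.5 and 258.3 CPM. Egr2 had the same order, at 86.2 and 8.31 CPM. In c24 of that library Egr1, Fosb and Egr2 were at 466.6, 324.1 and 27.7 CPM.

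Gadd45g was at 283.9 and 289.4 CPM in enteroendocrine-like cells of the whole-epithelium and GFP libraries and between 30.5 and 78.6 CPM in the colonocyte-like, goblet-like and stem/TA-like cells of both. In c24 of the whole-epithelium library it was at 26.5 CPM. Klf4 was highest in colonocyte-like cells, at 1493 and 1452 CPM, beside 505.5 and 383.9 CPM in stem/TA-like cells. Myc had the reverse order, at 32.3 and 41.2 CPM in stem/TA-like cells and 2.67 and 3.90 CPM in colonocyte-like cells. Nr4a1 was lowest in colonocyte-like cells of both libraries, at 40.5 and 10.0 CPM, and Maff was lowest in stem/TA-like cells of the GFP library, at 8.42 CPM, beside 40.8 CPM in its enteroendocrine-like cells. Btg1 and Gadd45b were highest in the lymphocyte-like cells of the whole-epithelium library, at 1019 and 147.5 CPM.

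Of the heat shock members Hspb1 alone, 1 of 7, passed 4-fold between classes in each library. Over all genes this held for 45.0% and 39.8%. That share was likewise not matched for level. Hspb1 was at 119.3 and 44.7 CPM in the enteroendocrine-like cells of the whole-epithelium and GFP libraries and at 1.92 and 0.527 CPM in the colonocyte-like cells. In the whole-epithelium library it was at 2.52 CPM in c24, the other cluster led by hormone genes, and at 60.4 CPM in goblet-like c23. Colonocyte-like cells were the lowest class for 7 of 7 heat shock members in the whole-epithelium library, against 45.8% of all genes, and for 6 of 7 in the GFP library, against 59.7%. Hsp90aa1, for example, was at 683.3 CPM in colonocyte-like and 2034 CPM in stem/TA-like cells of the whole-epithelium library, and at 356.2 and 1400.3 CPM in those of the GFP library.

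**Figure D2:**
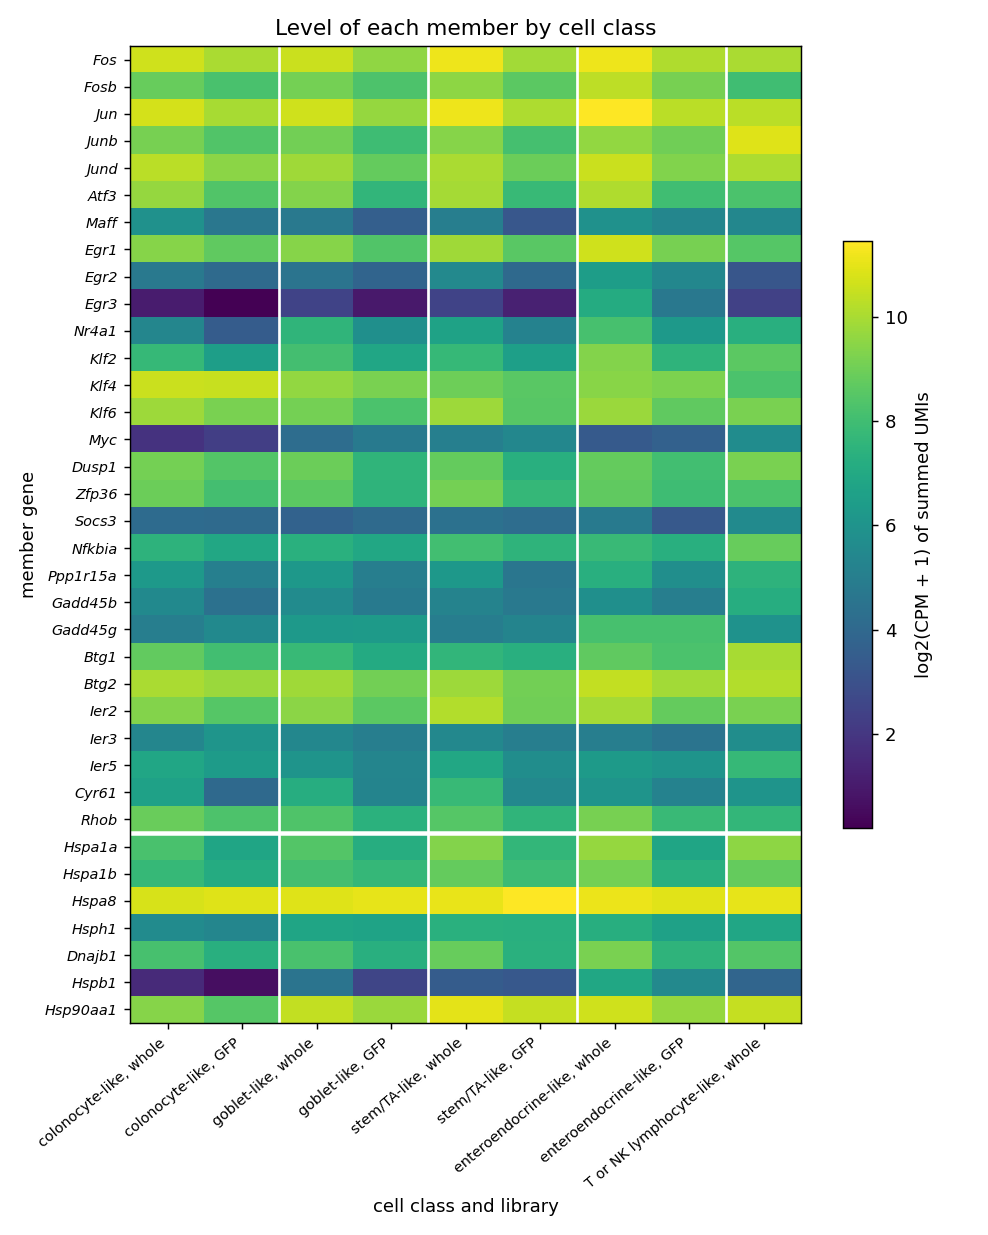
Colour gives log2(CPM + 1) of summed UMIs for each member (rows, immediate early above the white line and heat shock below it) in each cell class and library (columns). The enteroendocrine-like columns hold c22 without c24. Klf4 is brightest in the colonocyte-like columns, at 1493 and 1452 CPM, Egr3 and Hspb1 stand out in the enteroendocrine-like columns, at 137.3 and 119.3 CPM in the whole-epithelium library, and Hspa8 is nearly even across the row.

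Clusters show how far the classes are uniform. They are not replicates, since clusters of a library share its preparation. Each of the clusters compared had at least 100 cells and was counted in its main library alone. In goblet-like cells all 2 clusters of the GFP library lay below all 4 of the whole-epithelium library for 19 of 29 immediate early members and 5 of 7 heat shock members, against 7.29% of all genes. Atf3, for example, was at 170.5 and 295.3 CPM in the GFP clusters and between 412.3 and 1175 CPM in the others. In colonocyte-like cells all 3 GFP clusters lay below all 4 others for 6 of 29 immediate early members (Jun, Jund, Ppp1r15a, Gadd45b, Btg1 and Rhob) and for 1 of 7 heat shock members (Hspb1), against 8.50% of all genes. Part of the overlap came with cluster c7 of the whole-epithelium library. Without it, a comparison added after seeing the data, the GFP clusters lay below the other 3 for 21 of 29 immediate early and 3 of 7 heat shock members, against 16.3% of all genes, and the remaining members, Klf4 and Hspa1a among them, still overlapped. Cluster c7 had 643 cells with a median of 5906 UMIs and was led by Clca4a and the water channel gene Aqp8, and also by interferon-induced genes such as Ifit2. Its summed immediate early level, 8716 CPM, lay within the range of the GFP colonocyte-like clusters, 7509 to 9806 CPM, while the other 3 clusters of its class were between 12671 and 15161 CPM. Fos was at 617.9 CPM in c7 and between 796.3 and 1130 CPM in the 3 GFP clusters. Of these, c4 (751 cells, median 19043 UMIs) also had Clca4a and Aqp8 among its leading genes. Its immediate early sum, 9806 CPM, and its Fos level, 1097 CPM, were above those of c7. Jun was lower in c4, at 1076 against 1429 CPM. The comparison without c7 thus leaves out a cluster that shares leading genes with c4.

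Over all compared clusters, 9 of the GFP library and 16 of the whole-epithelium library, Ppp1r15a was the one immediate early member of 29 with every GFP cluster below every other, and no heat shock member of 7 had this, against 0.184% of all genes. Its GFP clusters reached at most 38.6 CPM and its whole-epithelium clusters were at least 42.2 CPM. The 109 GFP cells of c22, a cluster counted in the whole-epithelium library, took no part, and the separation does not extend to them. Cluster c23, goblet-like cells of the whole-epithelium library, had the second highest immediate early sum, 17528 CPM, after the enteroendocrine-like cluster c22 at 19204 CPM.

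**Figure D3:**
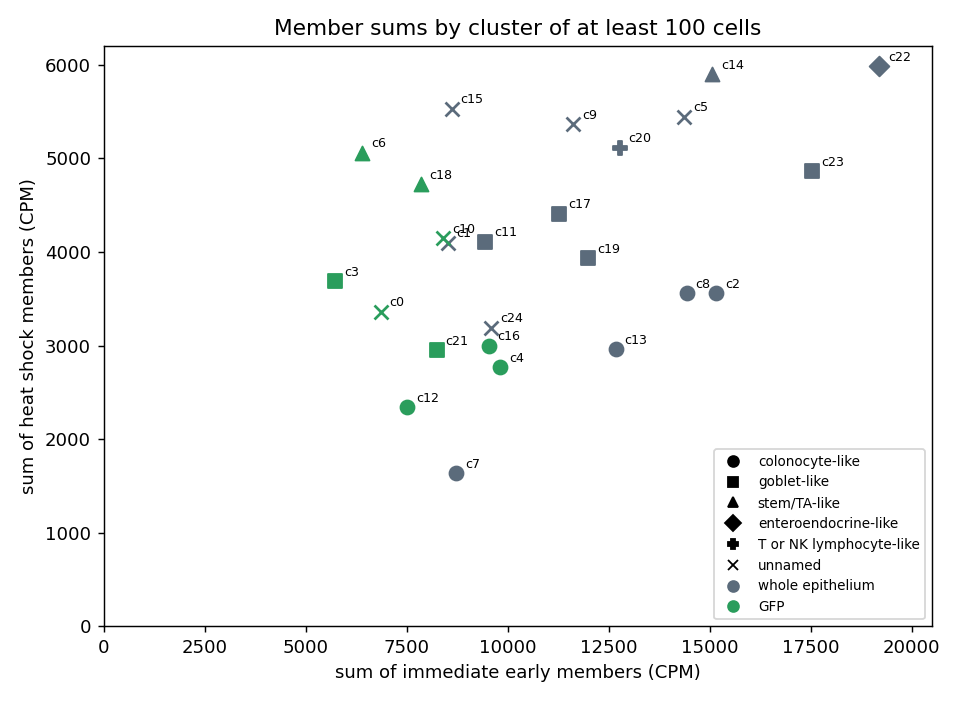
Each point is 1 cluster with at least 100 cells of its main library. The x axis gives the summed CPM of the immediate early members and the y axis that of the heat shock members, with colour for the library and shape for the class. GFP clusters lie at or below 9806 CPM on the x axis. Some whole-epithelium clusters lie there too, from c1 at 8512 CPM to c24 at 9584 CPM. On the y axis the libraries also overlap, and colonocyte-like clusters of both lie low.

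Per cell, the 10th to 90th percentiles of immediate early UMIs were all lower in the GFP library, by fewer UMIs at the lower end. With each cell thinned to 2000 UMIs, which left out 959 shallower cells in each library, the median cell had 22 immediate early UMIs in the whole-epithelium library (10th to 90th percentile 6 to 45) and 13 in the GFP library (4 to 29). Cells with none made up 0.382% and 0.582%. The medians were 22 and 16 in colonocyte-like cells, 22 and 10 in goblet-like cells, 29 and 12 in stem/TA-like cells and 35 and 15 in enteroendocrine-like cells. The ranges overlapped widely in each class. In stem/TA-like cells the same percentiles ran from 4 to 53 UMIs in the whole-epithelium library and from 3 to 26 in the GFP library. In colonocyte-like cells they ran from 8 to 45 and from 7 to 31, and in goblet-like cells from 8 to 42 and from 3 to 26. Heat shock UMIs had medians of 7 and 6 over all kept cells, and of 10 and 5 in enteroendocrine-like cells.

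**Figure D4:**
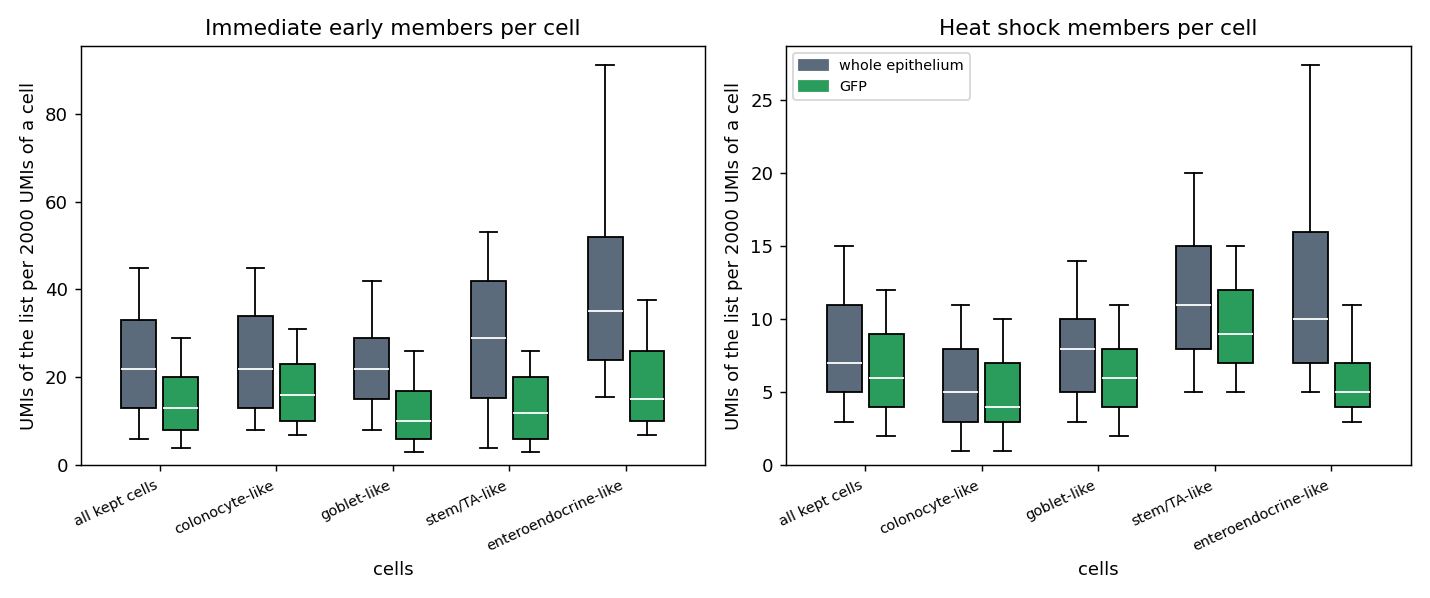
UMIs of the immediate early list (left) and of the heat shock list (right) in each cell after thinning to 2000 UMIs, by cell class and library. Boxes span the quartiles with the median as a white line, and whiskers run from the 10th to the 90th percentile. The GFP medians for immediate early members, 10 to 16, lie below those of the whole-epithelium library, 22 to 35, in all 4 classes and over all cells.

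Correlations from cell to cell were computed within a class of 1 library. In cells thinned to 10000 UMIs, and over members with a mean of at least 0.5 UMIs per cell, the median Pearson correlation of log2(UMIs + 1) between immediate early members was 0.38 in 1609 colonocyte-like cells of the whole-epithelium library and 0.29 in 1290 of the GFP library. In goblet-like cells it was 0.33 (766 cells) and 0.37 (811 cells). Over all genes with that mean, between 2472 and 2728 in each set of cells, the median was between 0.0036 and 0.012. These genes were not matched to the members for level, and correlations of genes with few UMIs are held near 0 by counting error. Single pairs of immediate early members ran from -0.10 to 0.81 in colonocyte-like cells of the whole-epithelium library. Cells of a library share its preparation, and classes pool clusters, so these values are a description. Fos and Jun reached 0.80 and 0.64 in colonocyte-like and 0.76 and 0.70 in goblet-like cells, in the same order of libraries. Heat shock members correlated with each other at a median of 0.37 and 0.25 in colonocyte-like cells, and with immediate early members at 0.25 and 0.14. In goblet-like cells the median between the lists was 0.08 and 0.12. Hspa1a and Hspa1b were at 0.65 and 0.43 in colonocyte-like cells and at 0.61 and 0.44 in goblet-like cells.

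The filter removed more barcodes of the GFP library, 57.5% of which had over 25% mitochondrial UMIs, against 38.2% of the whole-epithelium library. The members were therefore also summed by mitochondrial share, as CPM of non-mitochondrial UMIs. The immediate early sum was between 12759 and 14604 in the 6 bins of the whole-epithelium library and between 7019 and 10320.4 in those of the GFP library, lower in the GFP library in every bin. The 25% to 50% bin held the highest GFP value and was outside the filter. The heat shock sum was lower in the GFP library in 5 of 6 bins and higher in barcodes with over 50% mitochondrial UMIs, at 3226 against 2912. Between the bins of lowest and highest mitochondrial share it went from 5442 to 2912 in the whole-epithelium library and from 4321 to 3226 in the GFP library. By depth, the immediate early sum was 10419, 11275, 12820 and 13364 CPM in cells of the whole-epithelium library with up to 3000, 10000, 30000 and 200000 UMIs, and 7011, 7339, 7732 and 7466 CPM in the GFP library.

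**Figure D5:**
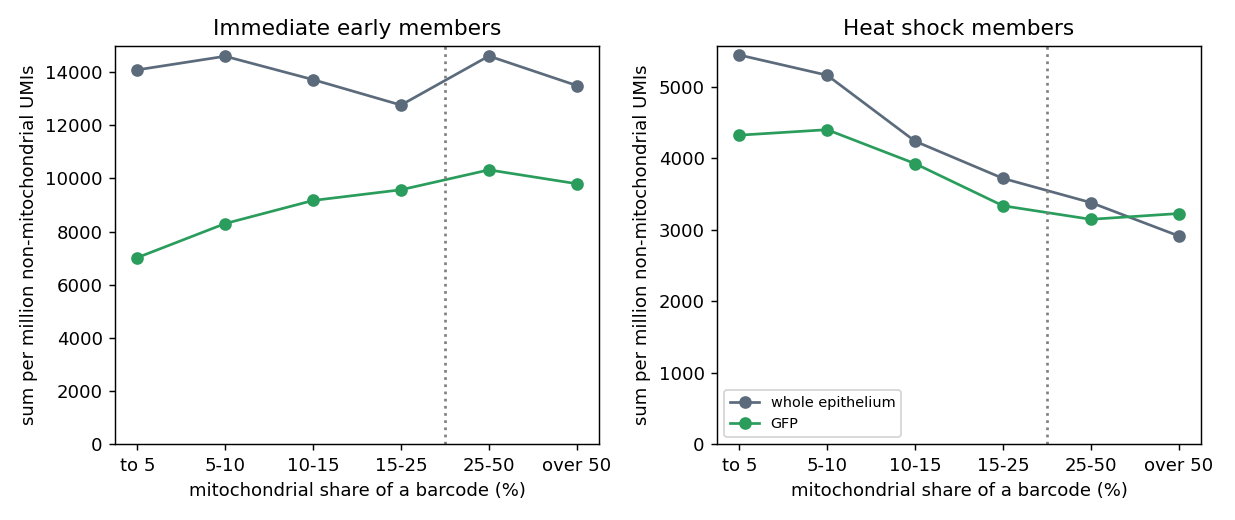
Summed immediate early (left) and heat shock (right) members as CPM of non-mitochondrial UMIs on the y axis, against the mitochondrial share of the barcode in percent on the x axis, with barcodes right of the dotted line outside the filter. The immediate early lines stay apart in all 6 bins, while the heat shock lines approach and cross, at 2912 for the whole-epithelium library and 3226 for the GFP library in the last bin.

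Markers of other cell types differed as well. The 9 T and NK lymphocyte markers summed to 93.1 CPM in the whole-epithelium library and 2.55 CPM in the GFP library, with none at 0 in either. The 4 haemoglobin genes summed to 106.2 and 0.322 CPM, 6 fibroblast markers to 11.6 and 2.99 CPM and 7 myeloid markers to 8.08 and 3.60 CPM. Other lists were higher in the GFP library, with 9 tuft markers at 9.64 and 17.97 CPM, 5 endothelial markers at 1.01 and 2.26 CPM, and 6 smooth muscle or interstitial markers at 36.4 and 40.5 CPM. Among the epithelial lists, 10 goblet markers summed to 6509.9 and 15493 CPM, 6 deep crypt secretory markers to 5381 and 18771 CPM and 11 enteroendocrine markers to 700.9 and 482.4 CPM. The immediate early median log2 ratio was -0.82 over all kept cells. By class it was -0.68 in colonocyte-like, -0.97 in goblet-like, -1.20 in stem/TA-like and -1.03 in enteroendocrine-like cells. Classes too were mostly made of different clusters in the libraries. The part of cell makeup in the ratios, over all kept cells or within a class, was not tested, nor was that of free RNA from other cell types. The 12 colonocyte markers summed to 20447 and 19593 CPM, with none at 0 in either library. Detection alone is no check of the tissue, since no lymphocyte or myeloid marker was at 0 either.

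Other genes of these pathways were compared over all kept cells, from lists drawn up with earlier results of these data known. Of 40 other immediate early and stress genes 35 were lower in the GFP library, against 53.7% of all genes. At least 2-fold lower were 9, against 10.0%, and 1 was at least 2-fold higher, against 3.97%. Their median log2 ratio was -0.55, beside -0.03 for all genes. The phosphatase gene Dusp2 was at 1.102 and 0.0645 CPM (-4.09, -5.43 to -3.02) and Egr4, the last of the EGR family, at 1.30 and 0.0829 CPM (-3.97, -5.12 to -3.01). Nr4a3, a relative of Nr4a1, was at 2.91 and 0.405 CPM (-2.84, -3.33 to -2.39). Fosl1, an AP-1 partner of Jun, was at 19.7 and 4.22 CPM (-2.22, -2.37 to -2.08), and Arc, a synaptic immediate early gene, at 35.5 and 7.62 CPM (-2.22, -2.33 to -2.11). Of 33 other heat shock and chaperone genes 23 were lower, against the same 53.7%, and 10 higher. At least 2-fold lower were 5, against 10.0%, and the median was -0.10. Serpinh1, the collagen chaperone, was at 1.102 and 0.203 CPM (-2.44, -3.16 to -1.79) and Cryab, a small heat shock protein, at 0.660 and 0.147 CPM (-2.16, -3.03 to -1.39). Hspb8, with 43 and 4 UMIs (-3.08, -5.02 to -1.62), and Hspa1l, with 18 and 5 UMIs (-1.50, -3.29 to -0.02), rest on few counts and were named after their values were seen. The HSP40 genes Dnaja4 and Dnajb4 were at -1.50 and -0.77, and the HSP90 co-chaperone gene Fkbp4 at -0.64.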

How the data were processed

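The members and the gene lists were chosen with earlier results of these data known. The deposited matrices hold UMI counts for each gene in each barcode. The authors used Cell Ranger and build mm10. The submitters' processing notes name version 2.1.1 and the file headers name 3.1.0, and the settings of cell calling are not given in the sources used here. The labels name 1 sample per group, and the matrices carry no normalisation. Totals were 164185392 UMIs (whole epithelium) and 150348319 UMIs (GFP) over all barcodes.

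Kept cells (limits above) were clustered with scanpy 1.11.5 and leidenalg 0.10.2, using 2000 variable genes, 30 components, 15 neighbours and resolution 1.0. A cluster was named from its best marker list if at least 3 markers were raised 2-fold over the median cluster of its library. It stayed unnamed with a marker score (mean log2 fold) under 0.5, with under 20 cells, when led by another class's markers, or, where its median depth was under 1/3 of the library's, with a score under 3, a limit set after the clusters were seen. No doublet caller was run and doublets were not removed.

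Sums carry exact Poisson intervals, and ratios exact conditional binomial intervals from scipy 1.17.1. The ratio code was run on simulated Poisson counts, the model the intervals assume. Those counts hold no variation between cells or libraries, so they cannot show how the intervals cover real sums. A sum of 3 UMIs, the floor, equals 0.0217 CPM (whole epithelium) and 0.0276 CPM (GFP). Members named in the text were the 12 with the largest log2 ratio among those with at least 100 UMIs, those at 1000 CPM or more, the HSP70 and HSP90 members, the 6 largest per class, those ranging 4-fold between classes and the 5 largest of each further list with at least 100 UMIs. Gene coordinates are from GENCODE on GRCm38. Alternatives changed the cell and gene filters, scaling, thinning, clustering and naming.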

Additional observations from a re-analysis of the deposited data

Results flagged for a closer look

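3 members were flagged because 2 classes moved opposite ways between the same libraries, with counting intervals that leave out 0. None of these differences between classes was tested, since each class has 1 library per group. Socs3 was higher in goblet-like cells of the GFP library, with a log2 ratio of 0.38 (0.16 to 0.60), and lower in its enteroendocrine-like cells, at -1.61 (-3.01 to -0.43), where it had 39 UMIs in the whole-epithelium library and 7 in the GFP library. The gap was 1.98. Ier3 was higher in colonocyte-like cells, at 0.74 (0.65 to 0.83), and lower in stem/TA-like cells, at -0.47 (-0.61 to -0.32), a gap of 1.2. Hspa8 was higher in stem/TA-like cells, at 0.38 (0.36 to 0.40), and lower in enteroendocrine-like cells, at -0.16 (-0.25 to -0.07), a gap of 0.54.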

How the results depend on the processing

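No paired analysis was possible because each group has 1 library. Over 11 settings in all kept cells, 25 to 26 of the immediate early members and 5 to 6 of the 7 heat shock members were lower in the GFP library, with medians from -0.89 to -0.73 and from -0.75 to -0.62. Over 16 settings per class, leaving out the deepest 5% of cells and both changes of naming being chosen after seeing the data, the immediate early counts were 23 to 26 in colonocyte-like, 25 to 27 in goblet-like and 26 to 28 in stem/TA-like cells. Those of heat shock members were 5 to 6, 5 to 7 and 4 to 6. Counts of members at least 2-fold lower moved more. For immediate early members they were 7 to 11 over all kept cells, 5 to 8, 9 to 17 and 9 to 20 in these classes, and for heat shock members 2 to 3, 0 to 4, 2 to 3 and 2 to 3. Single members turned sign in 3 of 360 values over all kept cells (Hsph1 and Myc), in 19 of 536 in colonocyte-like cells (Egr2, Hsph1, Klf4, Myc and Socs3), in 6 of 539 in goblet-like cells (Gadd45g, Hspa8 and Hsph1) and in 24 of 539 in stem/TA-like cells (Gadd45g, Hspb1, Hsph1, Klf4, Myc and Socs3), and none that was at least 2-fold turned. The settings for enteroendocrine-like cells were likewise added after seeing the data. There 24 to 28 immediate early and 6 to 7 heat shock members were lower, 8 to 20 and 3 to 5 at least 2-fold lower, and 4 of 533 values turned sign (Gadd45g, Hspa8 and Myc). Class medians of the immediate early ratios ran from -0.72 to -0.50 in colonocyte-like, -1.05 to -0.87 in goblet-like, -1.29 to -0.71 in stem/TA-like and -1.39 to -0.76 in enteroendocrine-like cells. Counts are small for Egr3, Hspb1, Ctgf and, in enteroendocrine-like cells, Socs3.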
